A study of Arabidopsis thaliana with 18 samples.

Results

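A set of 64 probe sets was raised by the cyclopentenone lipid PPA1 in 2 Arabidopsis thaliana genotypes. With OPDA, a relative of PPA1, their means were at most 0.4 above control on the log2 scale in each genotype. The members were chosen on group means of log2 intensity. PPA1 minus control had to be at least 0.8 in each genotype, with the lowest PPA1 array above the highest control array, and OPDA minus control could be at most 0.4 in each. Of 22746 probe sets on the array, 64 met these thresholds. The rule also leaves out certain genes and symbol families, among them UGT, GSTU, CYP, WRKY, ERF and PUB, but none of the 64 carried such a name. Only names were matched, so members with no gene in the annotation could not be checked against these families. A gene listed under its locus number, such as AT1G22810 of the AP2/ERF family, was kept. The array's annotation gave 1 gene for 32 of the members, several genes for 1 and no gene for 31, and the 32 probe sets with 1 gene stand for 32 different genes. All 64 passed the filter on low values, an intensity of at least 16 on at least 3 arrays, which 21869 probe sets passed.

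Total RNA of plants was hybridised to 18 single-colour Affymetrix arrays. The plants were of the accession Col-0 or of tga2-5-6, a triple mutant named for TGA transcription factors. Plants of each genotype were treated for 4 h with 75 µM PPA1 (phytoprostane A1), with 75 µM OPDA (oxo-phytodienoic acid) or with 0.5% methanol in water as the control, and each of the 6 groups had 3 arrays, which the labels call independent replicates. The labels name neither the organ nor the plants' age. The genotype could not be checked on the arrays, since no probe set was named for any of the 10 TGA factor genes listed.

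OPDA is made enzymatically from linolenic acid in the plastid and is the precursor of jasmonic acid, the hormone of wound and defence responses. Phytoprostanes, of which PPA1 is one, arise from that fatty acid by free-radical oxidation without enzymes and accumulate under oxidative stress. Both molecules carry a reactive cyclopentenone ring, and PPA1 bears in addition a hydroxyl group on a side chain. TGA factors are bZIP proteins known for their part in salicylic acid defence and in the induction of detoxification genes by electrophiles and xenobiotics. The question that these groups address is which responses to the compounds depend on the TGA factors.

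Intensities are on the authors' linear scale and are compared only within a probe set. The arrays' median intensities were 159 to 184, with 14.5% to 18.0% of values below 16. The mean after trimming 2% at each end was 500.05 on every array. Arrays of a group correlated at 0.905 to 0.937 on the log2 scale. The actin 3'/5' ratio, a sign of RNA quality, was 34.4 ± 11.7 (SD, n = 3) in Col-0 controls, 28.7 ± 3.21 with PPA1 and 28.1 ± 3.22 with OPDA, and in tga2-5-6 it was 48.3 ± 16.8, 29.4 ± 3.47 and 30.4 ± 4.60. The GAPDH 3'/5' ratio was 1.26 ± 0.107 in Col-0 controls, 1.14 ± 0.394 with PPA1 and 1.47 ± 0.461 with OPDA. In tga2-5-6 the GAPDH ratio was 1.55 ± 0.471, 0.953 ± 0.0721 and 1.46 ± 0.250. The mean actin ratio was lower with both compounds, and the mean GAPDH ratio was lowest with PPA1. Only the actin ratio of the mutant's PPA1 arrays lay wholly below that of its control arrays, and the part of either ratio in the values below was not tested. Of 9 root markers listed, EXPA7 and EXPA18, expansins of root hairs, were measured, at 302.5 ± 143 and 483 ± 130 in Col-0 controls. EXPA18 fell with both compounds in both genotypes, by 1.95 ± 0.30 to 2.32 ± 0.30 on the log2 scale (limma, adjusted p of 0.000307 to 0.00193). EXPA7 passed only with PPA1 in Col-0, at -2.57 ± 0.55 (limma, adjusted p = 0.0183). In the other comparisons it was at -1.78 to -1.07 (limma, adjusted p of 0.0639 to 0.236). The part of these changes in the members' values was not tested. None of the 4 leaf markers had a named probe set, and in bulk samples fewer cells of a type and less RNA per cell cannot be told apart. In the sentences on single genes, levels are given for every array in the order of replicates 1 to 3, log2 differences are group means ± SE of the limma fit to all arrays, and folds are their antilogs. The contrasts with control chose the members, so they are given as a description without a test.

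Across the 64 members, PPA1 minus control ran from 0.80 to 2.97 in Col-0, with a median of 1.12 (2.17-fold), and from 0.80 to 3.40 in tga2-5-6, with a median of 1.14 (2.20-fold). Both upper ends, 262332_at in Col-0 and AT3G59480 in tga2-5-6, were read against control arrays that reached below 16, so their size is inexact. Control arrays reached below 16 for 5 members in Col-0 and 6 in tga2-5-6, and among the other members the largest rise was that of AT1G26380, at 2.56 and 2.59. Over all kept probe sets the median was -0.05 in Col-0 and -0.13 in tga2-5-6. Of the members 38 were at least 2-fold higher with PPA1 in both genotypes, and 2, AT1G26380 and AT1G64590, at least 4-fold in both. The rise was larger in tga2-5-6 for 33 members and larger in Col-0 for 31. OPDA minus control had a median of 0.01 in Col-0, where 31 members lay below 0 and 33 above. In tga2-5-6 the median was 0.07, with 29 below and 35 above. Over all kept probe sets the OPDA medians were -0.12 and -0.17. In 19 members OPDA lay within 0.2 of the control in both genotypes.

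**Figure D1:**
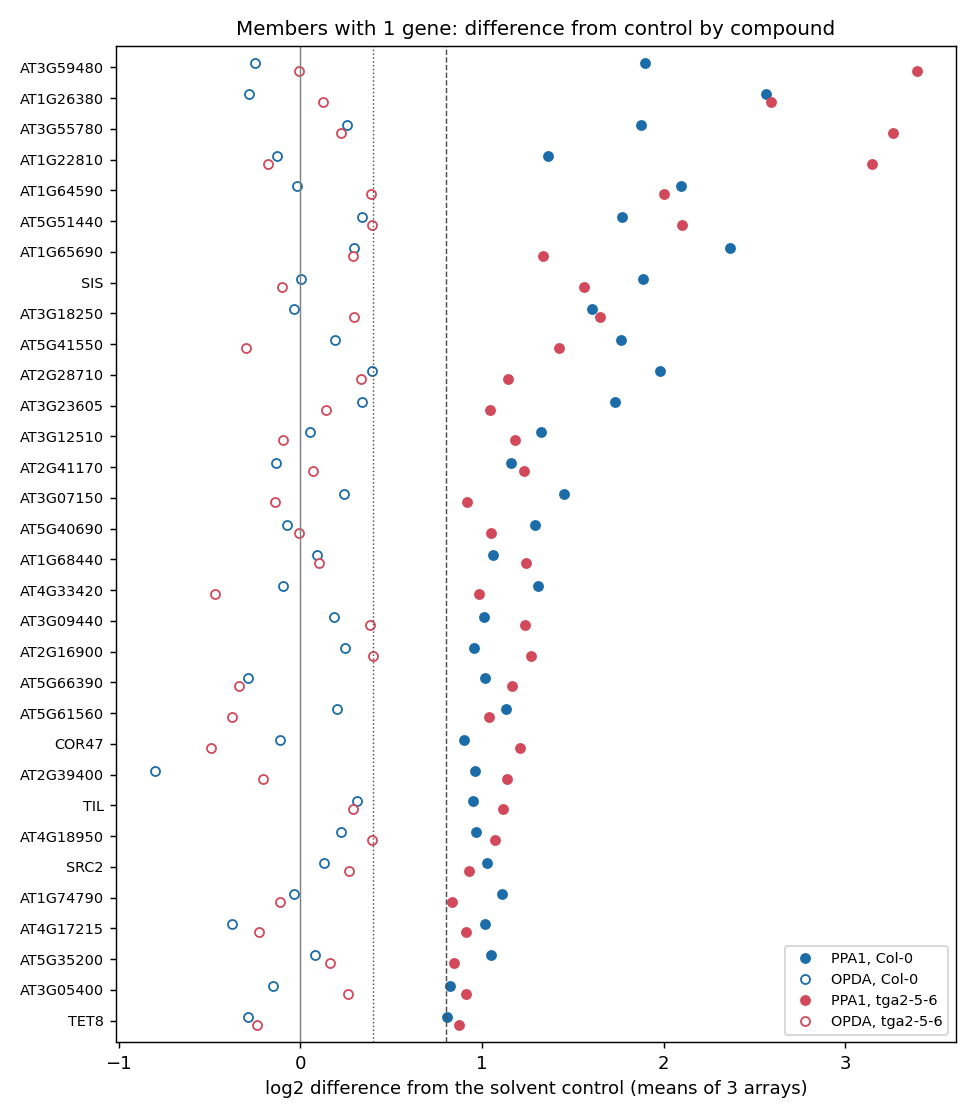
Log2 difference from control (horizontal axis) of the 32 members with 1 gene (vertical axis) in each genotype, with filled points for PPA1 and open points for OPDA. Every filled point lies right of the dashed line at 0.8 and every open point left of the dotted line at 0.4, as the rule requires, and OPDA minus control reached down to -0.80 in AT2G39400.

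Of the 32 genes, 2 encode molecular chaperones and 4 are linked to cold, drought or salt stress by name or known role, in groups formed after the members were seen. AT3G09440 encodes a cytosolic HSP70, a chaperone that binds unfolded proteins. In Col-0 it read 4291, 3459.9 and 3499 on the control arrays, 4909, 8166 and 10664 with PPA1 and 3376, 5044 and 4469 with OPDA. AT3G09440 in the mutant read 3869.7, 2802 and 4201, then 10631, 6089.8 and 9234 with PPA1 and 4473, 3795 and 5979 with OPDA. The rise with PPA1 was 2.02-fold in Col-0 and 2.36-fold in tga2-5-6 (log2 difference 1.01 ± 0.30 and 1.24 ± 0.30). Its lowest PPA1 array in Col-0 overlapped the OPDA arrays, while in tga2-5-6 all PPA1 arrays lay above them.

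AT5G51440 encodes a small heat shock protein of mitochondria, a chaperone that keeps damaged proteins from aggregating. It read 719.6, 488 and 707 on the Col-0 control arrays, 1857, 1606 and 3308 with PPA1 and 983, 628 and 816 with OPDA. AT5G51440 in the mutant read 799, 985 and 1038, then 4549, 3386 and 4202 with PPA1 and 1014, 1090.2 and 1675 with OPDA. With PPA1 it was 3.41-fold higher in Col-0 and 4.30-fold higher in tga2-5-6, among the larger rises of the set. OPDA minus control was 0.34 and 0.39, close under the limit of 0.4 in both genotypes.

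Other heat shock genes responded to both compounds. A list of heat shock genes was chosen with earlier results of these data known, so its counts are a description. Besides AT5G51440, 7 of its genes were measured. All 7 rose with PPA1 in both genotypes (limma, adjusted p under 0.05 and at least 2-fold). Of all kept probe sets 1.64% and 1.43% did. With OPDA 6 of the 7 rose in Col-0 and 7 in tga2-5-6, where 2.85% and 3.4% of all kept probe sets did. The exception was Fes1A, an exchange factor of HSP70, at 1.10 ± 0.35 with OPDA in Col-0 (limma, adjusted p = 0.0705). The median log2 difference of the 7 was 3.06 and 4.73 with PPA1 and 2.54 and 4.02 with OPDA, in Col-0 and tga2-5-6. AT2G29500, a small heat shock protein of the cytosol, rose by 3.06 ± 0.26 with PPA1 and by 2.54 ± 0.26 with OPDA in Col-0 (limma, adjusted p = 2.38e-05 and 7.18e-05). The comparisons with PPA1 and with OPDA share their control arrays.

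COR47 is a dehydrin, a hydrophilic protein that protects cells during cold and drought. On the Col-0 control arrays it read 4023, 3503 and 4127, with PPA1 5168, 7229 and 10116 and with OPDA 3725, 3151 and 3942. COR47 in the mutant read 2791, 2184 and 2334, then 4831, 5708 and 6372 with PPA1 and 2075, 1824 and 1354 with OPDA. In tga2-5-6 the PPA1, control and OPDA arrays formed 3 ranges without overlap, with OPDA lowest. PPA1 minus control was 0.90 ± 0.23 and 1.21 ± 0.23.

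TIL, the temperature-induced lipocalin, binds lipids at the plasma membrane and is known for a role in heat and oxidative stress tolerance. Its intensity in Col-0 was 2954, 2569.6 and 3645 in the controls, 4296, 5314 and 8756 with PPA1 and 5395, 2772 and 3529 with OPDA. TIL in the mutant read 2947, 3685 and 3173, then 6234, 6732 and 8363 with PPA1 and 3673, 3942 and 4363 with OPDA. OPDA replicate 1 in Col-0 reached the PPA1 range, and without overlap in tga2-5-6 TIL was 2.17-fold higher with PPA1 than in the controls.

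SRC2, a C2-domain protein known for its response to cold, had control intensities of 2875, 4412 and 4848 in Col-0, against 5265, 8878 and 11174 with PPA1 and 4338, 3737 and 4953 with OPDA. SRC2 in the mutant read 2461, 3027 and 3762, then 5511, 5411 and 6459 with PPA1 and 3112, 3946 and 3966 with OPDA. Its PPA1 level was 2.04-fold and 1.90-fold the control level, and PPA1 lay above OPDA on every array in both genotypes. SIS, a serine-rich protein named for its induction by salt, read 57.2, 45.5 and 24.0 in Col-0 controls, 63.6, 357 and 139.6 with PPA1 and 40.4, 44.4 and 35.2 with OPDA. SIS in the mutant read 40.1, 46.6 and 48.5, then 152, 103 and 148 with PPA1 and 23.0, 63.3 and 50.4 with OPDA. Its 3 PPA1 arrays in Col-0 were far apart, and PPA1 minus control was 1.89 ± 0.52 there and 1.56 ± 0.52 in tga2-5-6.

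**Figure D2:**
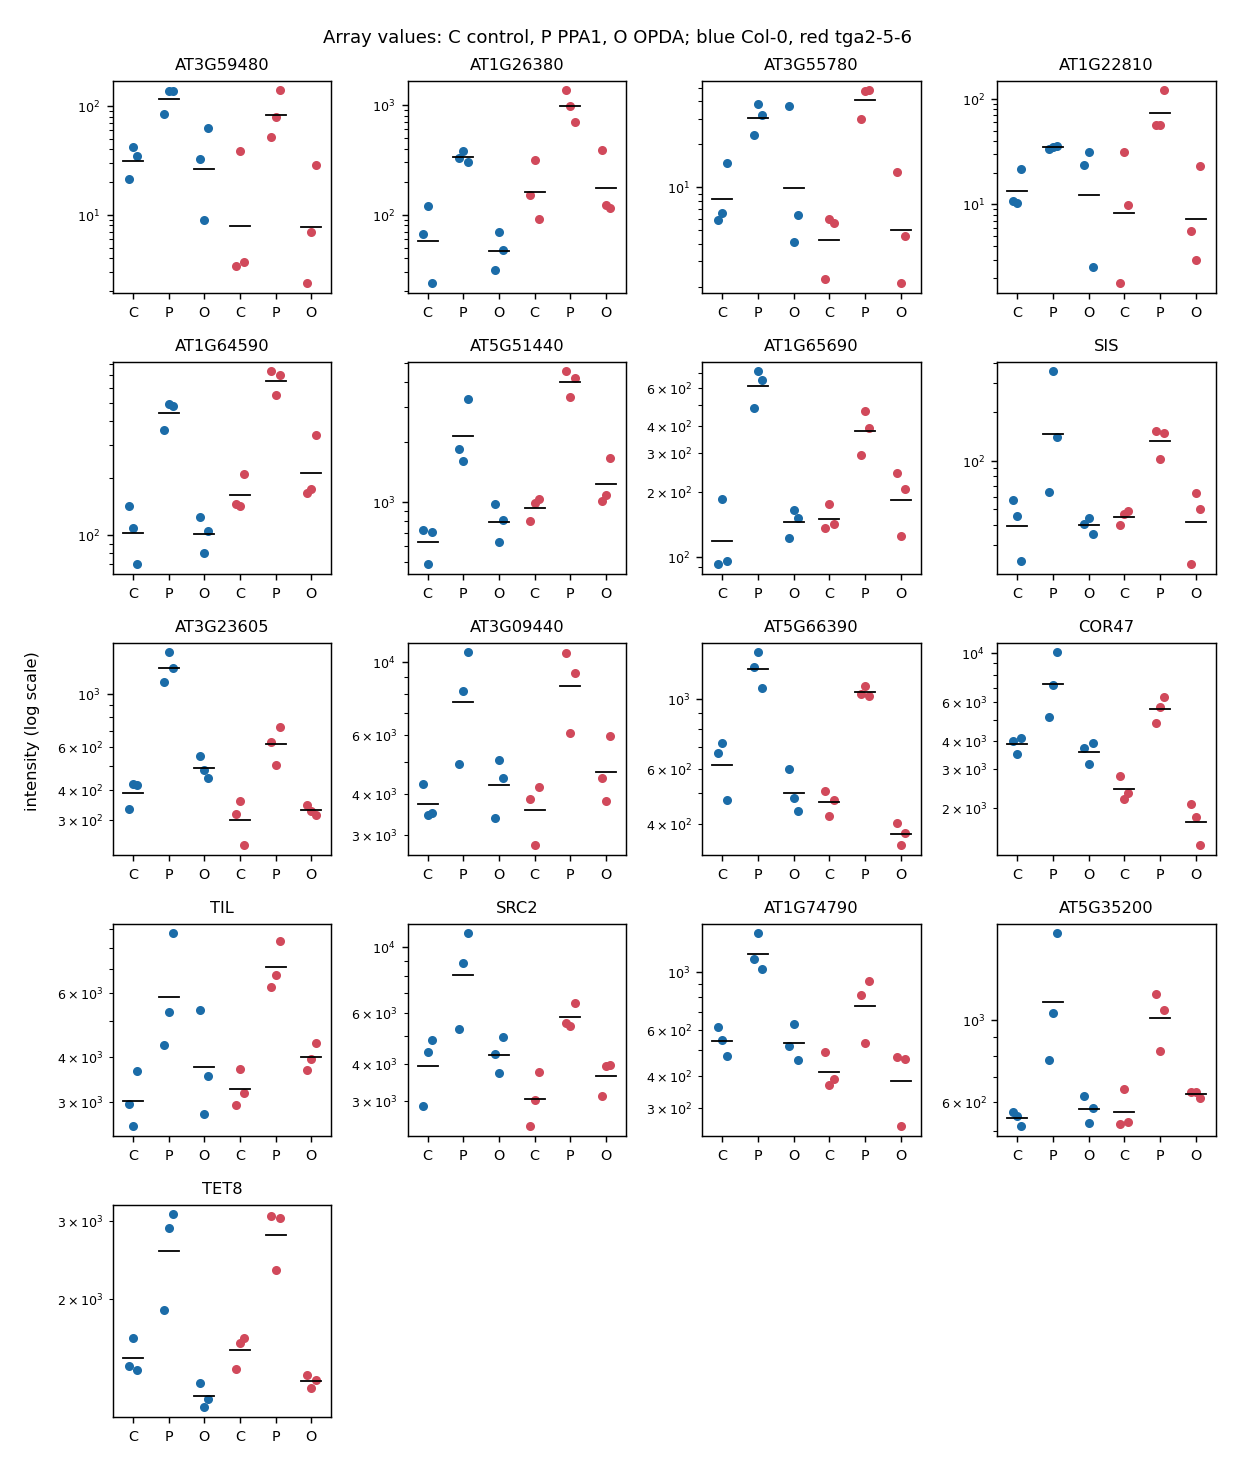
Intensity on each array (vertical axes, log scale) of 17 genes, the 10 with the highest PPA1 level and the 8 with the largest change, which share AT5G51440, in control (C), PPA1 (P) and OPDA (O) groups of Col-0 (blue) and tga2-5-6 (red), 3 arrays a group. In each panel the 3 PPA1 points of a genotype lie above its 3 control points, while the OPDA points overlap the control points or lie below them, except for AT3G23605 in Col-0.

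Among enzymes of the cell wall, AT5G66390 is a class III peroxidase linked to lignin formation. In Col-0 it read 673, 725 and 477 in the controls, 1265, 1406 and 1084 with PPA1 and 598, 483 and 441 with OPDA. AT5G66390 in the mutant read 510.0, 424 and 477, then 1034, 1097 and 1022 with PPA1 and 401, 342 and 374 with OPDA. Its PPA1 level was 2.02-fold and 2.24-fold the control level, and in tga2-5-6 every OPDA array lay below every control array. AT4G33420, another class III peroxidase, read 469, 408 and 429 in Col-0 controls, 1079, 1157 and 995 with PPA1 and 390.3, 439 and 394 with OPDA. AT4G33420 in the mutant read 322, 301 and 243, then 627, 339.7 and 861 with PPA1 and 181, 292 and 168 with OPDA. The Col-0 groups of AT4G33420 were tight, and in tga2-5-6 its PPA1 replicate 2 stood just above the highest control array. AT3G55780, of glycosyl hydrolase family 17, whose members cleave beta-1,3-glucans, was near the floor without PPA1. Its Col-0 control arrays read 5.88, 6.62 and 14.7, the PPA1 arrays 23.1, 38.5 and 31.9 and the OPDA arrays 37.2, 4.10 and 6.38. AT3G55780 in the mutant read 2.28, 5.99 and 5.60, then 29.8, 47.2 and 47.9 with PPA1 and 12.8, 2.12 and 4.52 with OPDA. Since its controls lay below 16, only the levels are given, and in Col-0 OPDA replicate 1 reached the PPA1 range.

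The 2 members with a rise of at least 4-fold in both genotypes were metabolic enzymes. AT1G26380 encodes an FAD-linked oxidase of the berberine bridge enzyme family, a family with members in pathogen-induced indole metabolism. On Col-0 control arrays it read 66.1, 119 and 23.9, with PPA1 333, 382 and 305 and with OPDA 31.3, 69.5 and 47.7. AT1G26380 in the mutant read 151, 313 and 91.0, then 1370.0, 986 and 701 with PPA1 and 389, 123 and 116 with OPDA. The rise was 5.91-fold in Col-0 and 6.04-fold in tga2-5-6 (2.56 ± 0.61 and 2.59 ± 0.61), and PPA1 lay above OPDA on every array. Its control arrays varied several-fold in both genotypes.

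AT1G64590 encodes a short-chain dehydrogenase, an oxidoreductase that uses a nicotinamide cofactor. It read 143, 109 and 70.3 in Col-0 controls, 359.8, 495 and 479 with PPA1 and 124, 80.2 and 106 with OPDA. AT1G64590 in the mutant read 146, 143 and 209, then 735, 551 and 698 with PPA1 and 167, 174 and 338 with OPDA. Its rise of 4.27-fold and 4.01-fold was close in size in the genotypes, and OPDA minus control was -0.02 in Col-0 and 0.39 in tga2-5-6. AT1G74790, a protein like sugar dehydrogenases, read 614, 548 and 477, 1124, 1404 and 1025 with PPA1 and 518, 633 and 458 with OPDA in Col-0. AT1G74790 in the mutant read 494, 367 and 388, then 817, 532 and 923 with PPA1 and 472, 256 and 464 with OPDA. Its PPA1 level was 2.16-fold and 1.79-fold the control level, and its lowest mutant PPA1 array was little above the highest control array.

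AT2G39400, of the alpha/beta hydrolase fold, a fold of esterases and lipases, had the lowest OPDA minus control in Col-0 of the members with 1 gene. In Col-0 it read 213, 259.8 and 243 in controls, 526, 424 and 442 with PPA1 and 131, 142 and 136 with OPDA. AT2G39400 in the mutant read 133, 296 and 173, then 424, 525 and 327 with PPA1 and 193, 144 and 159.5 with OPDA. OPDA minus control was -0.80 in Col-0, without overlap, and -0.21 in tga2-5-6, where the groups overlapped. AT3G59480, a kinase of the pfkB family, which holds fructokinases, read 21.2, 42.3 and 34.6, 85.3, 138 and 136 with PPA1 and 32.5, 8.93 and 63.3 with OPDA in Col-0. AT3G59480 in the mutant read 3.37, 38.7 and 3.73, then 51.6, 78.9 and 140.2 with PPA1 and 2.37, 6.99 and 28.9 with OPDA. Most of its mutant control and OPDA arrays lay below 16, so the size of its rise there is inexact.

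Among the 7 genes of membranes, signalling and defence, AT1G65690 had the largest PPA1 response in Col-0. It belongs to the NDR1/HIN1-like family, plasma membrane proteins linked to pathogen responses. The Col-0 controls read 93.1, 185 and 96.4, the PPA1 arrays 485, 715 and 652 and the OPDA arrays 122, 166 and 152. AT1G65690 in the mutant read 136, 175 and 143, then 294, 472 and 393 with PPA1 and 244, 125 and 205 with OPDA. The rise was 5.15-fold in Col-0 and 2.52-fold in tga2-5-6. TET8, a tetraspanin that marks extracellular vesicles, read 1406, 1624 and 1377 in Col-0 controls, 1881, 2889.9 and 3109 with PPA1 and 1286, 1132 and 1182 with OPDA. TET8 in the mutant read 1384, 1583 and 1625, then 3085, 2320.4 and 3052 with PPA1 and 1338, 1249.6 and 1303 with OPDA. In both genotypes the OPDA arrays of TET8 lay wholly below the controls and the PPA1 arrays wholly above them, with rises of 1.75-fold and 1.83-fold.

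AT5G35200, a clathrin assembly protein of the ENTH/ANTH type, which acts in endocytosis, read 562, 547 and 514 in Col-0 controls, 778, 1041 and 1719 with PPA1 and 619, 524 and 578 with OPDA. AT5G35200 in the mutant read 520.0, 649 and 529, then 1173, 825 and 1067 with PPA1 and 636, 638 and 614 with OPDA. Its PPA1 level was 2.07-fold and 1.80-fold the control level, and its PPA1 arrays lay above all control and OPDA arrays in each genotype. AT4G18950, a Raf-like protein kinase, read 332, 463 and 401 in Col-0 controls, 587, 879.7 and 896 with PPA1 and 415, 468 and 505 with OPDA. AT4G18950 in the mutant read 385, 295 and 405, then 959, 564 and 795 with PPA1 and 453, 495 and 463 with OPDA. In tga2-5-6 its OPDA arrays lay above the controls, with OPDA minus control at 0.39. AT3G05400, a sugar transporter of the ERD6-like family, read 136, 196 and 214 in Col-0 controls, 348, 340.2 and 266 with PPA1 and 167, 138 and 179.8 with OPDA. AT3G05400 in the mutant read 196, 211 and 88.3, then 258, 339 and 277 with PPA1 and 320.5, 183 and 107 with OPDA. Its mutant OPDA replicate 1 lay inside the PPA1 range. AT5G61560, a kinase with a U-box domain, was 2.19-fold and 2.06-fold higher with PPA1. AT5G41550, a TIR-NBS-LRR resistance protein, the class of receptors that detects pathogen effectors inside cells, was at 24.8 ± 1.23 (SD, n = 3) with PPA1 in Col-0 and 40.9 ± 7.24 (SD, n = 3) in tga2-5-6. Its controls were near the floor, at 5.69, 15.2 and 4.44 in Col-0 and 17.8, 25.1 and 7.70 in tga2-5-6, so no fold is given. Its Col-0 OPDA arrays read 3.24, 27.85 and 6.32, with replicate 2 above all PPA1 arrays. In tga2-5-6 all its PPA1 arrays lay above all OPDA arrays.

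Of the 5 genes of transcription and protein turnover, AT2G28710 encodes a C2H2 zinc finger protein. It read 65.9, 85.4 and 61.1 in Col-0 controls, 174, 289 and 420.0 with PPA1 and 73.8, 105 and 101 with OPDA. AT2G28710 in the mutant read 35.5, 102 and 99.0, then 145, 175 and 152 with PPA1 and 66.9, 91.1 and 118 with OPDA. The rise was 3.95-fold in Col-0 and 2.21-fold in tga2-5-6, and PPA1 lay above OPDA on every array. AT1G22810, a transcription factor of the AP2/ERF family, was near the floor, at 10.8, 10.4 and 21.8 in Col-0 controls, 33.9, 34.9 and 35.6 with PPA1 and 23.8, 31.1 and 2.55 with OPDA. AT1G22810 in the mutant read 1.80, 31.4 and 9.85, then 56.7, 56.4 and 121 with PPA1 and 5.54, 2.97 and 23.2 with OPDA. No fold is given for AT1G22810, whose mean control level was below 16 in both genotypes.

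AT3G23605, of the ubiquitin-like superfamily, read 332, 420.4 and 418 in Col-0 controls, 1118, 1493 and 1281 with PPA1 and 553, 482 and 445 with OPDA. AT3G23605 in the mutant read 315, 359 and 235, then 633, 506 and 731 with PPA1 and 346, 326 and 315 with OPDA. All its PPA1 arrays lay above all OPDA arrays, and in Col-0 all its OPDA arrays lay above the controls. The rise with PPA1 was 3.32-fold in Col-0 and 2.07-fold in tga2-5-6. AT3G12510, a MADS-box protein, was 2.51-fold and 2.27-fold higher with PPA1, and AT2G41170, an F-box protein, 2.23-fold and 2.34-fold.

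For 6 genes no role is given. Of these AT2G16900 read 326, 377 and 303 in Col-0 controls, 505, 862 and 626 with PPA1 and 380.3, 392 and 419 with OPDA. AT2G16900 in the mutant read 357, 311 and 383, then 721, 596 and 1385 with PPA1 and 419.7, 359 and 646 with OPDA. Its OPDA arrays lay above the controls in Col-0 and reached into the PPA1 range in tga2-5-6. AT3G18250 was 3.05-fold higher with PPA1 in Col-0 and 3.14-fold in tga2-5-6, and AT5G40690 2.45-fold and 2.07-fold. AT1G68440 was 2.09-fold and 2.37-fold higher, AT4G17215 2.02-fold and 1.88-fold, and AT3G07150 2.73-fold and 1.89-fold. AT3G07150 had the lowest PPA1 level of these 6 genes, and its rises of 1.45 ± 0.67 and 0.92 ± 0.67 on the log2 scale are inexact. No member genes were direct neighbours on a chromosome, and the nearest pair, AT5G40690 and AT5G41550, stood 91 steps apart in gene order.

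The 32 members without a single gene in the annotation had a median rise of 1.11 in Col-0 and 1.10 in tga2-5-6, against 1.23 and 1.17 for the 32 with 1 gene. The probe sets singled out from here on for their values were chosen after these were seen. In 2 members, 259723_at and 254241_at, the OPDA mean was at least 2-fold below the control mean in both genotypes. Probe set 259723_at read 915, 817 and 1005 in Col-0 controls, 2165, 2876 and 1979.5 with PPA1 and 579, 483 and 329.7 with OPDA. Probe set 254241_at read 114, 124 and 117, then 187, 269 and 238 with PPA1 and 70.3, 28.5 and 48.0 with OPDA. The PPA1 and OPDA arrays of both probe sets lay on opposite sides of the Col-0 controls, for 254241_at at 0.94 ± 0.26 and -1.37 from them on the log2 scale.

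The compounds were also set against each other at the matched concentration and time. PPA1 minus OPDA had a median of 1.20 in Col-0 and 1.15 in tga2-5-6, and the smallest value was 0.55 and 0.59. In Col-0 every PPA1 array lay above every OPDA array for 58 of the 64 members, against 12.8% of all kept probe sets, and in tga2-5-6 for 59, against 13.3%. In both genotypes this held for 53, against 4.86%. The rule fixes most of this separation, so it is a description. In Col-0 every OPDA array lay below every control array for 6 members (17.9% of all) and above for 4 (9.94% of all). In tga2-5-6 this was so for 4 (20.8%) and for 1 (10.1%). The OPDA arrays were not silent elsewhere. With OPDA 623 probe sets rose in Col-0 (2.85% of all kept probe sets) and 744 in tga2-5-6 (3.4%), while 2.1% and 3.06% fell. Of 8 measured genes of jasmonate synthesis and response 4 rose with OPDA in Col-0 and 5 in tga2-5-6. With PPA1 0 of these 8 passed in either genotype (limma). An unadjusted p under 0.05 (limma, either direction) was found for 1 in Col-0 and 2 in tga2-5-6. The gene in Col-0 was AT5G05600, higher at 0.84 ± 0.37. In tga2-5-6 AT5G05600 was higher at 1.05 ± 0.37 and ORA47 lower at -1.26 ± 0.56. The jasmonate list was chosen with earlier results of these data known. Over all kept probe sets 0.86% in Col-0 and 1.28% in tga2-5-6 fell with PPA1. Exchanging the compounds in the rule gave 295 probe sets, and 133 met the PPA1 thresholds for both compounds.

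The values ran on across the thresholds. Unless a probe set is named, the nearest values given are those of probe sets with 1 gene. For the 0.8 limit in Col-0 the nearest inside were TET8 at 0.81, AT3G05400 at 0.82 and COR47 at 0.90, and the nearest outside were AT2G37150 at 0.79, MMP at 0.78 and AT2G37540 at 0.78. In tga2-5-6 AT1G74790 and AT5G35200, at 0.84, and TET8, at 0.87, were nearest inside, and AT5G08139 at 0.79 and AT1G08050 at 0.74 were outside, with AT1G63720 closest at 0.795. Of the members without a single gene, 264779_at at 0.80, 266231_at at 0.83 and 266884_at at 0.85 were nearest inside in Col-0, and 247009_at at 0.80 and 246305_at at 0.87 in tga2-5-6. For the OPDA limit of 0.4 in Col-0, AT2G28710 stood inside at 0.39, AT3G23605 at 0.34 and AT5G51440 at 0.34, and AT2G20320 and AT3G15310 at 0.46 and AT1G67800 at 0.47 stood outside. In tga2-5-6 AT2G16900 at 0.40, AT5G51440 at 0.39 and AT4G18950 at 0.39 were inside, and AT1G15430 at 0.42, AT1G52200 at 0.46 and AT2G47890 at 0.47 outside. Group means of AT1G52200 in tga2-5-6 were 1319 in controls, 3336 with PPA1 and 1826 with OPDA. By array separation, the lowest PPA1 array of SRC2 was 0.12 above the highest Col-0 control, of SIS 0.15 and of AT3G09440 0.19. In tga2-5-6 the gap was 0.08 for AT4G33420, 0.11 for AT1G74790 and 0.15 for AT2G39400, and outside it was -0.08 for AT4G20500, -0.17 for AT5G43450 and -0.19 for AT4G26340. Outside in Col-0 the gap was -0.72 for AT2G15340, -1.55 for AT3G28510 and -2.49 for AT1G15830. In Col-0 28 probe sets failed the 0.8 limit alone, 27 the OPDA limit alone and 7 the separation alone, and in tga2-5-6 these were 26, 33 and 17.

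The Col-0 PPA1 arrays were not alike over the members. Replicate 1 was the lowest of the 3 for 42 of 64 members (65.6%), against 32.0% of all kept probe sets, and replicate 3 was the highest for 35 (54.7%, against 32.5%). AT3G09440, SRC2, COR47, TIL and TET8 each read lowest on replicate 1. In tga2-5-6 with PPA1, replicate 2 was the lowest for 38 members (59.4%, against 36.0%) and replicate 3 the highest for 35 (54.7%, against 36.8%). With OPDA in tga2-5-6, replicate 2 was the lowest for 35 members (54.7%, against 35.0%) and replicate 3 the highest for 36 (56.2%, against 31.2%). Without Col-0 PPA1 replicate 1 the rule gave 75 members in place of 64.

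The genotypes were compared first in the controls, a contrast that the rule did not use. Of the 64 members 1 was called (limma, adjusted p under 0.05 and at least 2-fold), against 0.535% of all kept probe sets. It was 264148_at, without a gene in the annotation, which read 303, 312 and 275 in Col-0 controls and 605, 787 and 517 in tga2-5-6 controls. The log2 difference was 1.08 ± 0.20 (limma, adjusted p = 0.026), and the call was lost without any of 5 arrays, the 3 Col-0 control arrays or tga2-5-6 control replicates 1 and 2 (adjusted p of 0.0708 to 0.112). It was also lost in a fit to the 6 control arrays alone (limma, adjusted p = 0.216). At an unadjusted p under 0.05 (limma) there were 13 members, or 20.3%, against 12.1% of all kept probe sets. The rule asked for PPA1 and control arrays without overlap, which favours probe sets of small spread. This share and the counts of members called between the genotypes, here, with PPA1 and with OPDA, are therefore descriptions. The median member differed by 0.03. All control arrays of tga2-5-6 lay above those of Col-0 for 13 members (11.5% of all kept probe sets) and below for 5 (7.73% of all). AT1G26380 was 1.51 ± 0.61 higher in tga2-5-6 controls on the log2 scale and did not pass (limma, adjusted p = 0.347).

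With PPA1 4 of the 64 members were called between the genotypes (limma), against 1.57% of all kept probe sets, a description as in the controls. Of these 1 was higher in tga2-5-6 (0.69% of all) and 3 were lower (0.883% of all). AT3G23605 was lower in tga2-5-6, by 1.06 ± 0.18 on the log2 scale (limma, adjusted p = 0.00658). Its PPA1 arrays were all lower in the mutant than in Col-0, and the fold bound of the call was lost without Col-0 PPA1 replicate 2 (-0.96) or without tga2-5-6 PPA1 replicate 2 (-0.92). Probe set 258059_at read 1159.9, 1121 and 976 with PPA1 in Col-0 and 294, 330.4 and 477 in tga2-5-6, a difference of -1.59 ± 0.24 (limma, adjusted p = 0.00252). Probe set 248607_at was lower as well, by 1.23 ± 0.21 (limma, adjusted p = 0.00586), and 260225_at was higher in tga2-5-6, by 1.76 ± 0.30 (limma, adjusted p = 0.00568). All but 260225_at missed the threshold in a fit to the arrays of that comparison alone, with AT3G23605 at an adjusted p of 0.144 (limma). At an unadjusted p under 0.05 (limma) there were 17 members (26.6%), against 12.6% of all kept probe sets, a description as in the controls. All PPA1 arrays of tga2-5-6 lay above those of Col-0 for 13 members (8.78% of all) and below for 8 (9.39% of all).

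With OPDA, a comparison added after the results were seen, 2 members were called (limma), against 0.787% of all kept probe sets, 1 higher in tga2-5-6 (0.384% of all) and 1 lower (0.402% of all). Probe set 264148_at read 275, 309.7 and 318 with OPDA in Col-0 and 839, 544 and 494 in tga2-5-6, a difference of 1.02 ± 0.20 (limma, adjusted p = 0.0241). COR47 was lower in tga2-5-6, at -1.06 ± 0.23 (limma, adjusted p = 0.0444), and its OPDA arrays did not overlap between the genotypes. The call of 264148_at was lost without any of the 3 Col-0 OPDA arrays or tga2-5-6 OPDA replicate 1, and that of COR47 under 16 of the 18 omissions of an array. Both calls were lost in a fit to the OPDA arrays alone (limma, adjusted p = 0.265 and 0.202) and with quantile normalization. At an unadjusted p under 0.05 (limma) there were 19 members (29.7%), against 11.5% of all kept probe sets, a description as in the controls. All OPDA arrays of tga2-5-6 lay above those of Col-0 for 14 members (9.41% of all) and below for 10 (7.82% of all). For the other members a p that misses the threshold does not show equal levels in the genotypes.

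**Figure D3:**
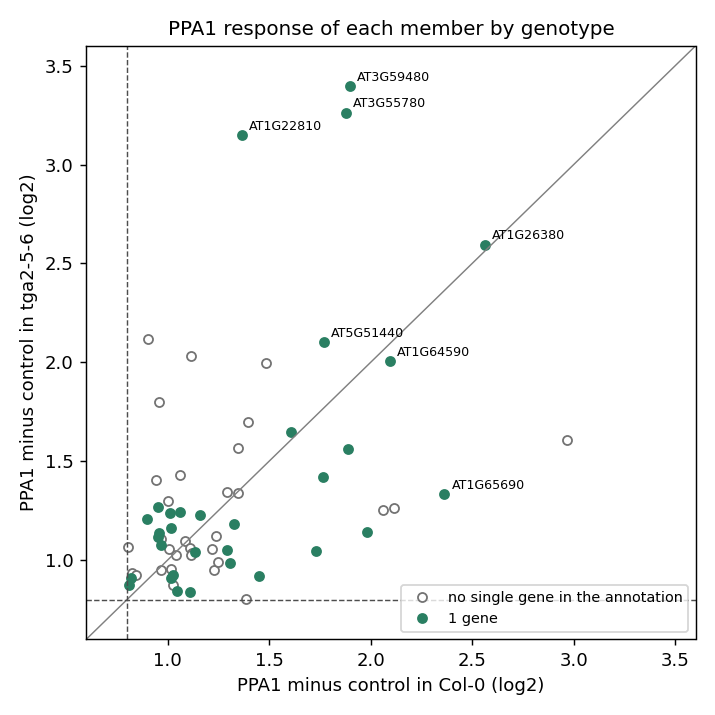
PPA1 minus control (log2) in Col-0 (horizontal axis) against tga2-5-6 (vertical axis) for the 64 members, with points for members with 1 gene and others told apart by the legend. Values of 33 members lie above the line of equal response and of 31 below it, and the members farthest from it include genes near the floor, such as AT3G59480 and AT3G55780.

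The difference of the PPA1 response between the genotypes was tested next, as the mutant's response less the Col-0 response. The rule had required a rise of at least 0.8 in both genotypes, so probe sets whose rise was missing in one genotype could not be members. None of the 64 members was called (limma), against 0.00915% of all kept probe sets, and 5 had an unadjusted p under 0.05 (7.81%, against 7.39% of all). AT3G23605 had a response difference of -0.69 with a 95% interval from -1.25 to -0.12 (limma, adjusted p = 0.582). For AT1G65690 it was -1.03, from -1.95 to -0.11 (limma, adjusted p = 0.642). For AT1G26380 it was 0.03, from -1.84 to 1.90, an interval that holds large differences either way. For TET8 the interval was narrower, from -0.47 to 0.60 around 0.06. The difference of the OPDA response was called in 0 of 64 members and in 0 of all kept probe sets (limma), and 0 members had an unadjusted p under 0.05, against 6.49% of all. The rule held that response at or under 0.4 in both genotypes. On simulated data the test of the PPA1 response difference recovered 8.7% of 2-fold and 47.2% of 4-fold changes among 21869 probe sets, so that differences of that smaller size were seldom detectable with 3 arrays a group.

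The genotypes share no array, so the thresholds could be applied in one genotype and the choice read on the other's arrays. On Col-0 arrays alone 336 probe sets met the thresholds, of which 320 passed the filter. In tga2-5-6, 24 of the 320 (7.5%) were called higher with PPA1 in a fit to that genotype's arrays (limma, adjusted p under 0.05 and at least 2-fold), against 0.819% of all kept probe sets. Every PPA1 array lay above every control array for 125 (39.1%), against 8.48% of all. The median PPA1 minus control of the 320 in tga2-5-6 was 0.48, against -0.13 over all. Of these 24, 8 were members, whose rise in both genotypes the full rule already required. OPDA minus control stayed at or under 0.4 in tga2-5-6 for 256 (80%), where 83.6% of all kept probe sets did. The called share depended on single arrays. It was 5.33% without Col-0 PPA1 replicate 1, 4.70% without Col-0 PPA1 replicate 2, 4.83% without Col-0 PPA1 replicate 3, 2.50% without tga2-5-6 control replicate 1 or 3, 1.56% without tga2-5-6 PPA1 replicate 1 and 1.88% without tga2-5-6 PPA1 replicate 3, with 0.329% to 0.819% of all kept probe sets called in these fits.

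Chosen on tga2-5-6 arrays alone, 219 probe sets met the thresholds, and 214 passed the filter. In Col-0, 29 of the 214 (13.6%) were called higher with PPA1 in a fit to the Col-0 arrays (limma), against 1.32% of all kept probe sets. Every PPA1 array lay above every control array for 119 (55.6%), against 9.66% of all, and the median was 0.78, against -0.05. Of the 29, 19 were members, again chosen in part for their rise in Col-0. OPDA minus control was at or under 0.4 in Col-0 for 170 (79.4%), against 81.2% of all. Leaving out a Col-0 control array gave a called share of 4.21% (replicate 1 or 2) or 5.14% (replicate 3). Leaving out a Col-0 PPA1 array gave 14.0% (replicate 1), 3.74% (replicate 2) or 4.67% (replicate 3), and omitting OPDA replicate 2 gave 7.94%, where 0.567% to 1.3% of all were called. The 64 members are 19.0% of the 336 and 29.2% of the 219.

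**Figure D4:**
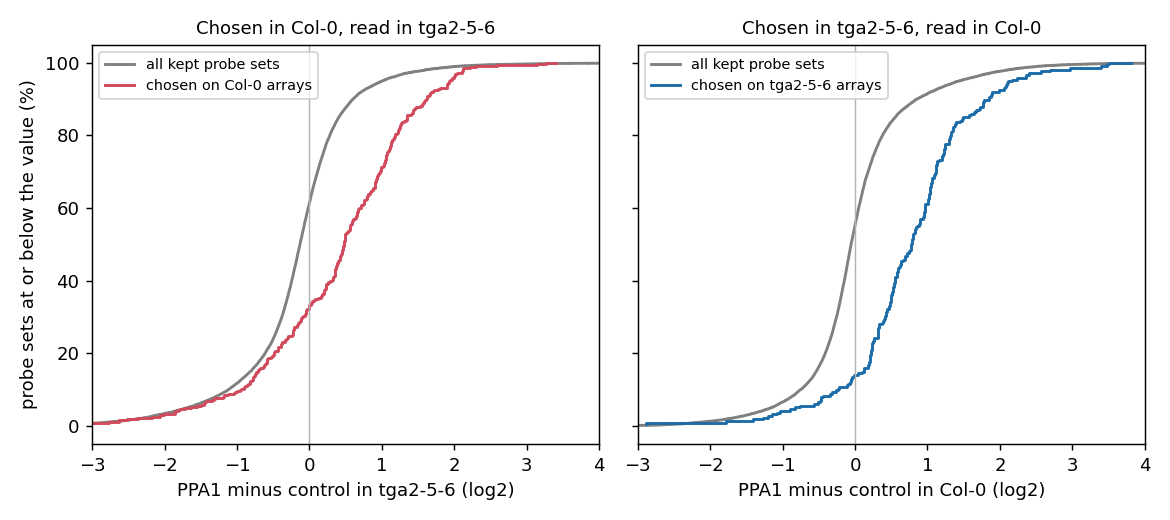
Cumulative share of probe sets (vertical axis, percent) by PPA1 minus control (horizontal axis, log2) in the genotype that did not choose them, for the sets chosen on Col-0 arrays and on tga2-5-6 arrays and for all kept probe sets. The chosen sets lie to the right of all probe sets, with medians of 0.48 in tga2-5-6 and 0.78 in Col-0.

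Gene lists of related pathways, also chosen with earlier results of these data known, gave few measured genes, since many probe sets carried no gene. Over all kept probe sets 1.64% in Col-0 and 1.43% in tga2-5-6 were called higher with PPA1, and 2.85% and 3.4% with OPDA. Of 5 measured genes of mitochondrial dysfunction 1 rose with each compound in each genotype. It was NDB2, an alternative NADH dehydrogenase of mitochondria, at 1.94 ± 0.20 with PPA1 and 1.79 ± 0.20 with OPDA in Col-0 (limma, adjusted p = 8.62e-05 and 0.000121). An unadjusted p under 0.05 (limma) was found for 2 of the 5 in Col-0 and 1 in tga2-5-6 with each compound. The other in Col-0 was AT2G04050, at 1.71 ± 0.47 with PPA1 and 1.04 ± 0.47 with OPDA (limma, adjusted p = 0.0674 and 0.222). Of 9 calcium-binding genes 0 rose with PPA1 in either genotype (limma). An unadjusted p under 0.05 (limma, either direction) was found for 4 in Col-0 and 5 in tga2-5-6. Those in Col-0 were higher for CML37 and CML41, at 1.72 ± 0.71 and 1.65 ± 0.57. They were lower for CML30 and CML43, at -0.49 ± 0.22 and -0.57 ± 0.25. CML43, a calmodulin-like protein, fell with PPA1 in tga2-5-6, by 1.27 ± 0.25 (limma, adjusted p = 0.0135), and was among the 5 there. With OPDA 2 of the 9 rose in Col-0 and 3 in tga2-5-6, where 2.85% and 3.4% of all kept probe sets did. CML23, another calmodulin-like gene, stood just under 2-fold higher with PPA1 in tga2-5-6, at 1.00 ± 0.21 (limma, adjusted p = 0.0167). Of 3 genes of endoplasmic reticulum stress and 2 antioxidant enzymes 0 were called with either compound in either genotype (limma), with 1 to 2 of each list at an unadjusted p under 0.05, but several failed the bound of 2-fold alone. GR1, a glutathione reductase, was 0.60 to 0.91 higher on the log2 scale with both compounds in both genotypes (limma, adjusted p of 0.000418 to 0.0139). ATMDAR2, a monodehydroascorbate reductase, stood 0.76 ± 0.15 higher with OPDA in Col-0 and 1.00 ± 0.15 in tga2-5-6 (limma, adjusted p = 0.00685 and 0.000944), and 0.59 ± 0.15 higher with PPA1 in tga2-5-6 (adjusted p = 0.0449). BZIP60, a transcription factor of the unfolded protein response, was at 0.94 ± 0.16 with PPA1 in tga2-5-6 (limma, adjusted p = 0.00553). Of 2 measured genes of salicylic acid and defence, GRX480 rose with both compounds in both genotypes, by 3.11 ± 0.69 with PPA1 and 3.77 ± 0.69 with OPDA in Col-0 (limma, adjusted p = 0.0227 and 0.00379). It encodes a glutaredoxin known to interact with TGA factors. The other, SAG101, a lipase-like protein of defence signalling, was at -0.78 ± 0.19 with OPDA in Col-0 and -0.66 ± 0.19 in tga2-5-6, short of 2-fold (limma, adjusted p = 0.0213 and 0.0387). With PPA1 SAG101 was at -0.18 ± 0.19 and -0.16 ± 0.19 (limma, adjusted p = 0.72 and 0.697).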

How the data were processed

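The authors deposited 1 intensity per probe set and array on a linear scale. GCRMA is named in the submitters' processing notes, but it gives log2 values, while the deposited ones are linear and share a trimmed mean. The array controls (64 probe sets) were left out, values under 1 were set to 1, and log2 was taken with no further normalization. Probe sets with at least 16 on at least 3 of the 18 arrays were kept. Groups follow the sample labels, and genes follow the array's annotation with names from TAIR10.1.

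A group-means model was fitted with limma 3.58.1 in R 4.3.3 (12 residual and 1.50 prior degrees of freedom), with two-sided tests and Benjamini-Hochberg adjustment over the 21869 kept probe sets. A call needs an adjusted p under 0.05 and at least 2-fold. Readings of a choice made in the other genotype were fitted to that genotype's 9 arrays. The tests were checked on simulated data. The members and the gene lists were chosen with earlier results of these data known.

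Named genes are the 10 members with the highest PPA1 level, the 8 with the largest change, those called between the genotypes (with OPDA, added after seeing the data), and the 3 nearest to each threshold on either side. Groups by role were formed after the members were seen. Alternatives changed the scaling, floor, filter, moderation, arrays in the fit or block, or left out an array. Same-numbered arrays of different groups did not deviate together (correlations of -0.05 to 0.07 over 45 pairs), so the numbers were not taken as pairs. The lists for proteasome, ABC and MATE transporters, kinases and resistance receptors matched no gene and give no value.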

Additional observations from a re-analysis of the deposited data

How the results depend on the processing

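The number of members was 59 with arrays centred on their medians, 57 with quantile normalization and 61 with a floor of 16, and it ran from 54 (without tga2-5-6 control replicate 3) to 75 (without Col-0 PPA1 replicate 1). Over the other settings, the count of members called between genotypes in controls was 0 in a fit to the arrays of the comparison alone, and 0 to 1 when each array was left out. With PPA1 it was 1 in the fit to those arrays alone and 3 to 5 when each array was left out. The 3 members that lost that call had adjusted p-values of 0.0811 to 0.144 (limma). With OPDA, where 2 members were called, the count was 1 with arrays centred on their medians, 0 with quantile normalization, 0 in the fit to those arrays alone, 1 with the replicate block and 0 to 3 when each array was left out. These alternatives for OPDA were chosen after seeing the data. The genotype differences of both responses gave 0 calls among the members under every alternative run. The share of probe sets chosen on Col-0 arrays and called higher in tga2-5-6 was 7.5% as reported. It was 13.0% with a floor of 16 and 18.4% both with a trend in the moderation and with all 18 arrays in the fit. Over all kept probe sets the same calls then made up 1.19%, 1.61% and 1.43%. The share chosen on tga2-5-6 arrays and called higher in Col-0 was 24.8% with a trend and 22.9% with all 18 arrays, against 1.93% and 1.64% of all. With the replicate block these shares were 4.06% and 6.07%, against 0.476% and 0.851% of all, and 5 members were called with PPA1, though the numbers were not found to pair the arrays, and beside the OPDA count the block changed no other call. With each array left out the shares ran from 1.56% (without tga2-5-6 PPA1 replicate 1) to 8.46% and from 3.74% (without Col-0 PPA1 replicate 2) to 14.0%. The causes were not tested. The 3 arrays a group limit the precision. Signals under 16 leave the size of a change inexact.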
